A study of Cavia porcellus with 44 samples.

Results

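Complement, coagulation and serpin genes were followed in liver RNA of 44 guinea pigs as a set of 37 genes out of 7747 in the table of variance-stabilized values. They were chosen by symbol alone: genes of the complement components and their fluid-phase regulators, the numbered clotting factors and fibrinogen chains, every gene whose symbol starts with SERPIN, and PLG, VTN, PROS1, CPB2, VWF and AHSG. The rule reads no expression value, but it was set with earlier results of these data known. Another 12 serpin symbols of the count table (SERPINA12, SERPINA2, SERPINA2.1, SERPINA5, SERPINB12, SERPINB13, SERPINB3, SERPINB3.1, SERPINB4, SERPINB4.1, SERPINB5.1 and SERPINE3) held between 0 and 185 counts over all animals together, under the minimum total of 200, and were not tested. Many central genes of these systems, such as C3, F2 and SERPINC1, match the rule but were absent under these symbols, so they could not be analysed. The same holds for KNG1, KLKB1, PROC and HRG, which the rule also names.

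The animals were female Hartley guinea pigs, an outbred stock that, like humans, cannot make vitamin C (vitC). LFH animals (n = 8) ate low fat feed with high vitC, and HFH animals (n = 8) high fat, high cholesterol feed with added sucrose and high vitC, for all 32 weeks. The other 4 groups ate the high fat feed with low vitC for 16 weeks. Then HFL/HFL (n = 10) stayed on it, HFL/HFH (n = 6) changed to high fat with high vitC, HFL/LFL (n = 6) to low fat with low vitC and HFL/LFH (n = 6) to low fat with high vitC, until week 32. LFH animals were pair-fed to HFH animals, HFL/LFH to HFL/HFH and HFL/LFL to HFL/HFL, and all animals were semi-fasted overnight before sampling. Each animal gave 1 library from the left lateral lobe, the sources used here give no age, and the labels name no batch.

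Complement is a cascade of plasma proteases. C1 starts its classical arm on bound antibody, factors B and D drive the alternative arm, and C5 to C9 assemble into a pore in the target membrane. Coagulation is a parallel cascade that ends in fibrin, which plasmin dissolves again. Serpins are inhibitors that trap a protease by a large change of shape, and several of them restrain both cascades. The liver makes most of these plasma proteins, chiefly in hepatocytes, whereas C1q comes mainly from macrophages, von Willebrand factor and factor VIII from endothelium, and the clade B serpins mostly stay inside the cell that makes them.

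On the high fat feed the members that were lower were mostly secreted liver proteins. Clade B serpins made up 5 of 9, 6 of 10 and 4 of 8 of the members called higher in the comparisons below. Values are in CPM (counts scaled to edgeR's effective library size), and fold changes are log2 differences, first-named group minus second. A gene was called when the Benjamini-Hochberg adjusted p of edgeR's quasi-likelihood test over 7629 symbols was under 0.05. In HFH against LFH, 27 of 37 members were called (73.0%, against 49.1% of all symbols tested), 9 of them higher (24.3%, against 27.5% of all symbols) and 18 lower (48.6%, against 21.6%). In HFL/HFL against HFL/LFL, 28 members were called (75.7%, against 37.7%), 10 higher (27.03%, against 19.6%) and 18 lower (48.6%, against 18.1%). In HFL/HFH against HFL/LFH the calls numbered 21 (56.8%, against 35.9%), with 8 higher (21.6%, against 19.4%) and 13 lower (35.1%, against 16.5%). The median log2 fold change of the members in these comparisons was -0.50, -0.56 and -0.42, beside 0.06, 0.03 and 0.01 over all symbols.

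The 3 diet comparisons share no animals. In all of them 12 members were called lower (32.4% of the set, against 10.5% of all symbols): C8A, C8B, CFB, F9, F12, PROS1, SERPINA10, CPB2, PLG, SERPINF2, SERPINA11 and SERPINA3. A further 7 were called higher in all (18.9%, against 13.4%), among them CFD, SERPINH1, SERPINB1, SERPINB6, SERPINB9.1 and SERPINB9.2. VWF was the single member called in opposite directions, and C1QB, SERPINA9, SERPINB2, SERPINB9 and SERPINI1 were called in none. The ranges of the groups compared did not overlap for 13 members in HFH against LFH (16.8% of all symbols), for 8 in HFL/HFL against HFL/LFL (9.86%) and for 9 in HFL/HFH against HFL/LFH (16.1%). C8A, C8B, F9, SERPINA11, SERPINB6 and SERPINB9.2 were without overlap in each. When all 20 low fat animals were set beside all 24 high fat animals, 4 members had no overlap (C8B and F9 lower, SERPINB6 and SERPINB9.2 higher), beside 3.92% of all symbols.

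**Figure D1:**
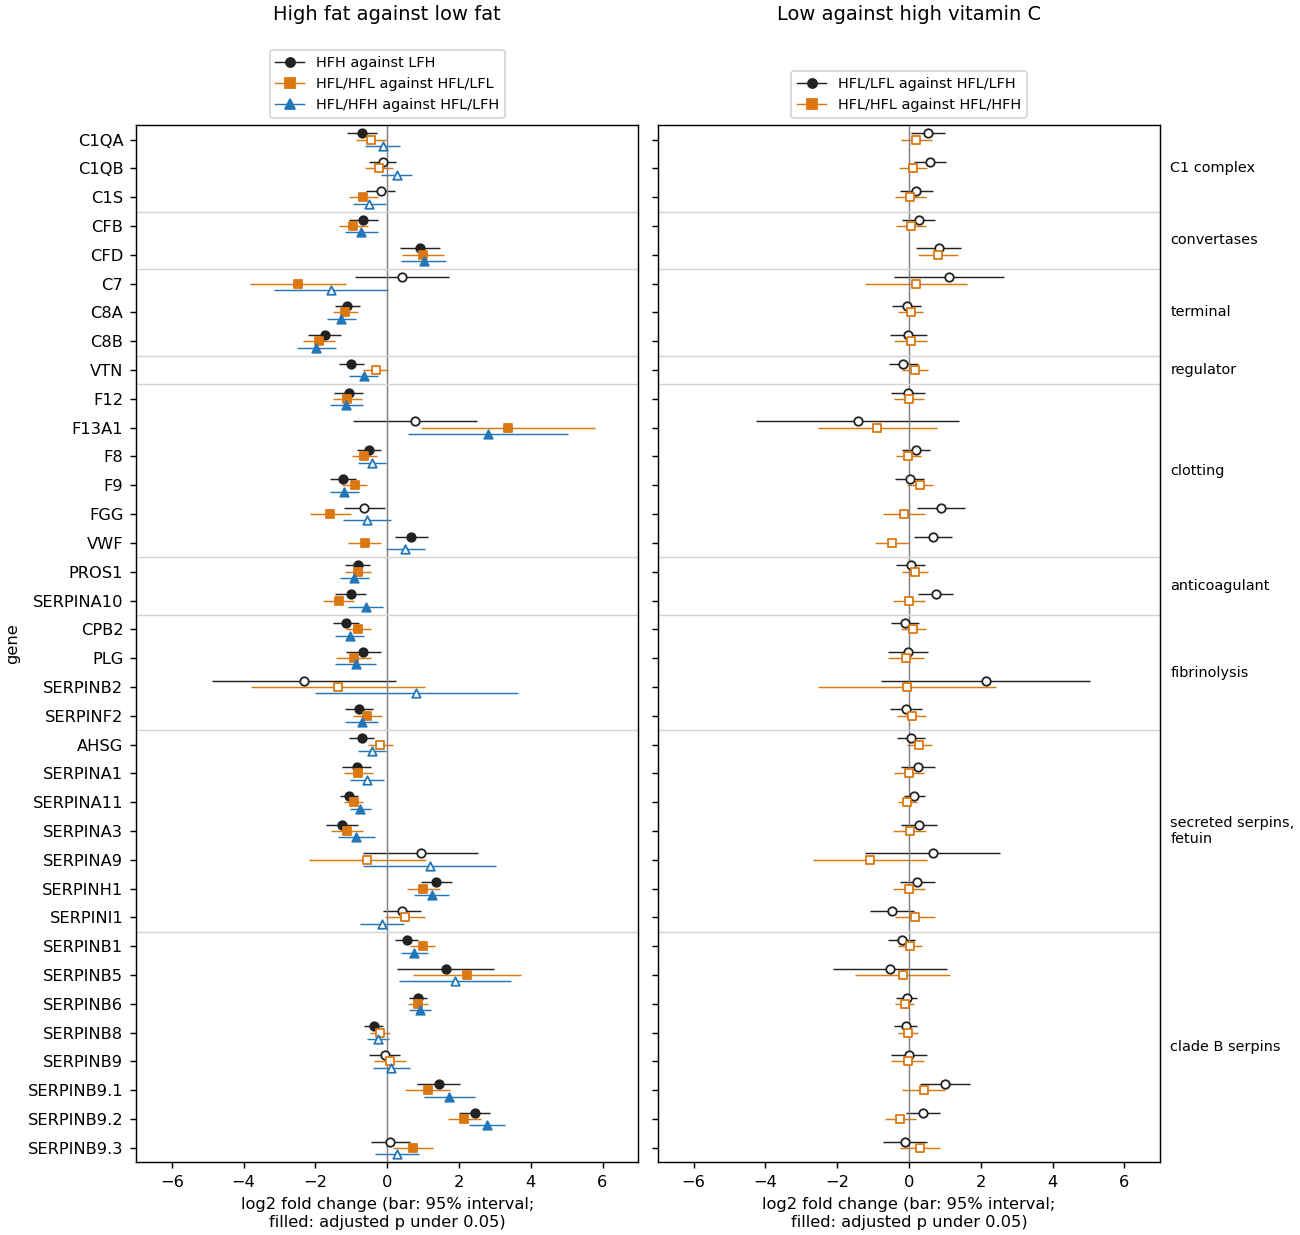
Log2 fold change (x axis) of 36 of the 37 members (y axis, grouped by role) in the 3 diet comparisons (left) and the 2 comparisons of vitamin C levels (right). Points are estimates, bars 95% intervals, and filled points have an adjusted p under 0.05. The left panel has 26, 27 and 20 filled points and the right panel has none.

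Total counts per animal ran from 21133807 to 35427724, and the members took 4.42% to 10.6% of an animal's counts. A count of 3, taken as the floor, equalled 0.0641 to 0.174 CPM, which covers counting error only. In bulk liver, fewer cells of a type and less RNA per cell cannot be told apart. Several cell type markers differed between the feeds. The summed level of the 3 of 10 listed hepatocyte markers in the table (ALB, ASGR1, APOH) ranged from 78573 to 184839 CPM in LFH, 51503 to 174528 in HFL/LFH and 57924 to 140672 in HFL/LFL, against 10901 to 67866 in HFH, 23423 to 50033 in HFL/HFH and 16656 to 56256 in HFL/HFL. Albumin (ALB) makes up most of this sum and was called lower in each diet comparison, by 1.61, 1.41 and 1.87 on the log2 scale in the order above, as was APOH. ASGR1 was called lower in HFH against LFH alone, with log2 fold changes of -0.02 and -0.20 in the other comparisons. Macrophage markers (4 of 10 in the table) summed to group medians of 352 to 489 CPM on low fat and 231 to 259 on high fat, but did not move one way: CD5L and MRC1 were called lower and MSR1 higher in each diet comparison, and CD163 in none. Endothelial markers (4 of 10) summed to medians of 625 to 726 and 431 to 504. LYVE1 was called lower each time, CDH5 and KDR in HFL/HFL against HFL/LFL alone and PECAM1 in none. Stellate and fibroblast markers (5 of 10) summed to medians of 485 to 661 and 1136 to 1513 CPM. PDGFRB, RGS5 and LUM were called higher each time, LRAT lower each time and ACTA2 in none. Cholangiocyte markers (3 of 8, all called higher each time) summed to 201 to 248 and 783 to 836. Platelet markers (3 of 7) summed to 1.13 to 4.23 CPM on low fat and 2.78 to 10.0 on high fat. Neutrophil markers (7 of 7, 1 of them at 0 in every animal) had medians of 8.70 to 29.2 and 8.08 to 19.9 CPM. Of the 6 tested, 0, 1 (MPO) and 3 (S100A8, S100A9 and CXCR2) were called higher in the order of the diet comparisons and 2 (S100A8 and S100A9) in HFL/LFL against LFH. In that last comparison 1 macrophage, 1 stellate and fibroblast and 1 cholangiocyte marker were also called higher. No hepatocyte, endothelial or platelet marker was called there. The part of cell makeup in the members' differences was not tested.

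The terminal pathway held the largest decreases among the complement members. C8A and C8B encode the chains of C8 that insert into the membrane. C8B ranged from 882 to 1490 CPM in LFH (median 1158), from 721 to 1597 in HFL/LFH (median 1478) and from 972 to 1777 in HFL/LFL (median 1310). C8B in HFH ranged from 117 to 527 CPM (median 367), in HFL/HFH from 264 to 541 (median 304) and in HFL/HFL from 197 to 465 (median 379). Every one of the 24 high fat animals was below every one of the 20 low fat animals. C8B fell on the log2 scale by 1.74 (SE 0.23, adjusted p = 3.05e-08) in HFH against LFH, by 1.90 (SE 0.22, adjusted p = 1.01e-08) in HFL/HFL against HFL/LFL and by 1.97 (SE 0.27, adjusted p = 1.22e-07) in HFL/HFH against HFL/LFH.

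C8A was also lower in every diet comparison. C8A ranged from 1052 to 1390 CPM in LFH (median 1112), from 760 to 1480 in HFL/LFH (median 1312) and from 953 to 1356 in HFL/LFL (median 1198). C8A in HFH ranged from 321 to 780 CPM (median 557), in HFL/HFH from 340 to 742 (median 494) and in HFL/HFL from 270 to 675 (median 519). Within each diet comparison the ranges did not overlap, although the lowest HFL/LFH animal (animal 33) lay below the highest HFH animal. C8A fell by 1.11 (SE 0.17, adjusted p = 9.90e-07) in HFH against LFH, by 1.17 (SE 0.17, adjusted p = 1.11e-06) in HFL/HFL against HFL/LFL and by 1.28 (SE 0.20, adjusted p = 2.53e-06) in HFL/HFH against HFL/LFH. C7, which joins the complex before C8, was scarce and uneven. C7 ranged from 1.31 to 7.01 CPM in LFH (median 3.66), from 1.14 to 5.44 in HFL/LFH (median 2.90) and from 1.96 to 14.4 in HFL/LFL (median 3.55). C7 in HFH ranged from 0.612 to 23.9 CPM (median 1.29), in HFL/HFH from 0.153 to 1.54 (median 0.993) and in HFL/HFL from 0 to 5.20 (median 0.767). A single HFH animal, animal 61, held the highest value of all 44, and the remaining HFH animals overlapped with LFH in part. C7 was called lower in HFL/HFL against HFL/LFL alone (log2 fold change -2.48, SE 0.67, adjusted p = 0.00307), a value that was -3.20 without HFL/HFL animal 52. Its log2 fold change was 0.41 (SE 0.65, adjusted p = 0.63) in HFH against LFH, where leaving out HFH animal 61 turned the sign (-0.69, adjusted p = 0.381), and -1.57 (SE 0.79, adjusted p = 0.118) in HFL/HFH against HFL/LFH.

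The alternative pathway pair moved in opposite directions. Factor B (CFB) carries the catalytic part of the alternative C3 convertase, and factor D (CFD, adipsin) is the protease that activates it. CFB ranged from 4031 to 8461 CPM in LFH (median 4906), from 4017 to 7246 in HFL/LFH (median 5382) and from 4079 to 7690 in HFL/LFL (median 7016). CFB in HFH ranged from 1777 to 5127 CPM (median 3883), in HFL/HFH from 2713 to 4124 (median 3323) and in HFL/HFL from 2151 to 5070 (median 3138). The groups overlapped in all 3 comparisons, with the medians lower on high fat. CFB fell by 0.66 (SE 0.20, adjusted p = 0.00492) in HFH against LFH, by 0.94 (SE 0.20, adjusted p = 0.000239) in HFL/HFL against HFL/LFL and by 0.72 (SE 0.23, adjusted p = 0.0113) in HFL/HFH against HFL/LFH.

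CFD was higher on the high fat feed, most of all in HFL/HFL. CFD ranged from 8.43 to 24.9 CPM in LFH (median 13.96), from 10.7 to 27.3 in HFL/LFH (median 19.7) and from 19.1 to 59.9 in HFL/LFL (median 25.05). CFD in HFH ranged from 12.8 to 48.8 CPM (median 25.9), in HFL/HFH from 22.5 to 55.6 (median 40.4) and in HFL/HFL from 41.6 to 110 (median 60.99). The lowest medians were those of LFH and HFL/LFH and the highest that of HFL/HFL, and neighbouring groups in this order overlapped. CFD rose by 0.92 (SE 0.27, adjusted p = 0.00465) in HFH against LFH, by 1.001 (SE 0.29, adjusted p = 0.00492) in HFL/HFL against HFL/LFL and by 1.02 (SE 0.31, adjusted p = 0.00887) in HFL/HFH against HFL/LFH.

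Of the 3 classical pathway members, 1 was called lower in HFH against LFH (21.6% of all symbols), 1 in HFL/HFL against HFL/LFL (18.1%) and 0 in HFL/HFH against HFL/LFH (16.5%). C1QA and C1QB encode chains of C1q, the part of C1 that binds antibody, and C1S a protease of C1. C1QA ranged from 451 to 1126 CPM in LFH (median 558), from 319 to 792 in HFL/LFH (median 544) and from 500 to 1050 in HFL/LFL (median 836). C1QA in HFH ranged from 252 to 587 CPM (median 415), in HFL/HFH from 279 to 765 (median 511) and in HFL/HFL from 407 to 784 (median 608). All diet comparisons overlapped for C1QA, and HFL/LFL had the highest median. C1QA was called lower in HFH against LFH alone (log2 fold change -0.70, SE 0.21, adjusted p = 0.00522), with -0.45 (SE 0.21, adjusted p = 0.0902) in HFL/HFL against HFL/LFL and -0.13 (SE 0.24, adjusted p = 0.726) in HFL/HFH against HFL/LFH.

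C1QB ranged from 145 to 303 CPM in LFH (median 169), from 94.1 to 219 in HFL/LFH (median 175) and from 167 to 363 in HFL/LFL (median 238). C1QB in HFH ranged from 114 to 228 CPM (median 166), in HFL/HFH from 115 to 261 (median 231) and in HFL/HFL from 168 to 302 (median 204). Low and high fat animals were interleaved. No diet comparison called C1QB: the log2 fold changes were -0.13 (SE 0.19, adjusted p = 0.602), -0.22 (SE 0.19, adjusted p = 0.387) and 0.27 (SE 0.22, adjusted p = 0.358) in the order above, and the first turned to 0.01 without LFH animal 64. The summed macrophage markers had lower medians on high fat and the highest in HFL/LFL, although MSR1 among them was higher on high fat, and their part in the C1q values was not tested. C1S ranged from 1547 to 2751 CPM in LFH (median 1710), from 1140 to 2675 in HFL/LFH (median 2290) and from 1563 to 2886 in HFL/LFL (median 2413). C1S in HFH ranged from 1018 to 2490 CPM (median 1646), in HFL/HFH from 843 to 1881 (median 1483) and in HFL/HFL from 841 to 2137 (median 1410). These ranges overlapped throughout. C1S was called lower in HFL/HFL against HFL/LFL alone (log2 fold change -0.66, SE 0.21, adjusted p = 0.00968), with -0.18 (SE 0.20, adjusted p = 0.473) in HFH against LFH and -0.49 (SE 0.23, adjusted p = 0.0957) in HFL/HFH against HFL/LFH.

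Vitronectin (VTN), a plasma and matrix protein that holds back the terminal complex, ranged from 8483 to 11876 CPM in LFH (median 10053), from 6630 to 10468 in HFL/LFH (median 9555) and from 5736 to 10061 in HFL/LFL (median 7771). VTN in HFH ranged from 2675 to 6463 CPM (median 5816), in HFL/HFH from 4078 to 8174 (median 5390) and in HFL/HFL from 3948 to 8064 (median 6614). HFH and LFH did not overlap, while the groups that had changed feed did. VTN fell by 0.995 (SE 0.17, adjusted p = 5.91e-06) in HFH against LFH and by 0.65 (SE 0.20, adjusted p = 0.00813) in HFL/HFH against HFL/LFH. In HFL/HFL against HFL/LFL its log2 fold change was -0.32 (SE 0.17, adjusted p = 0.143).

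**Figure D2:**
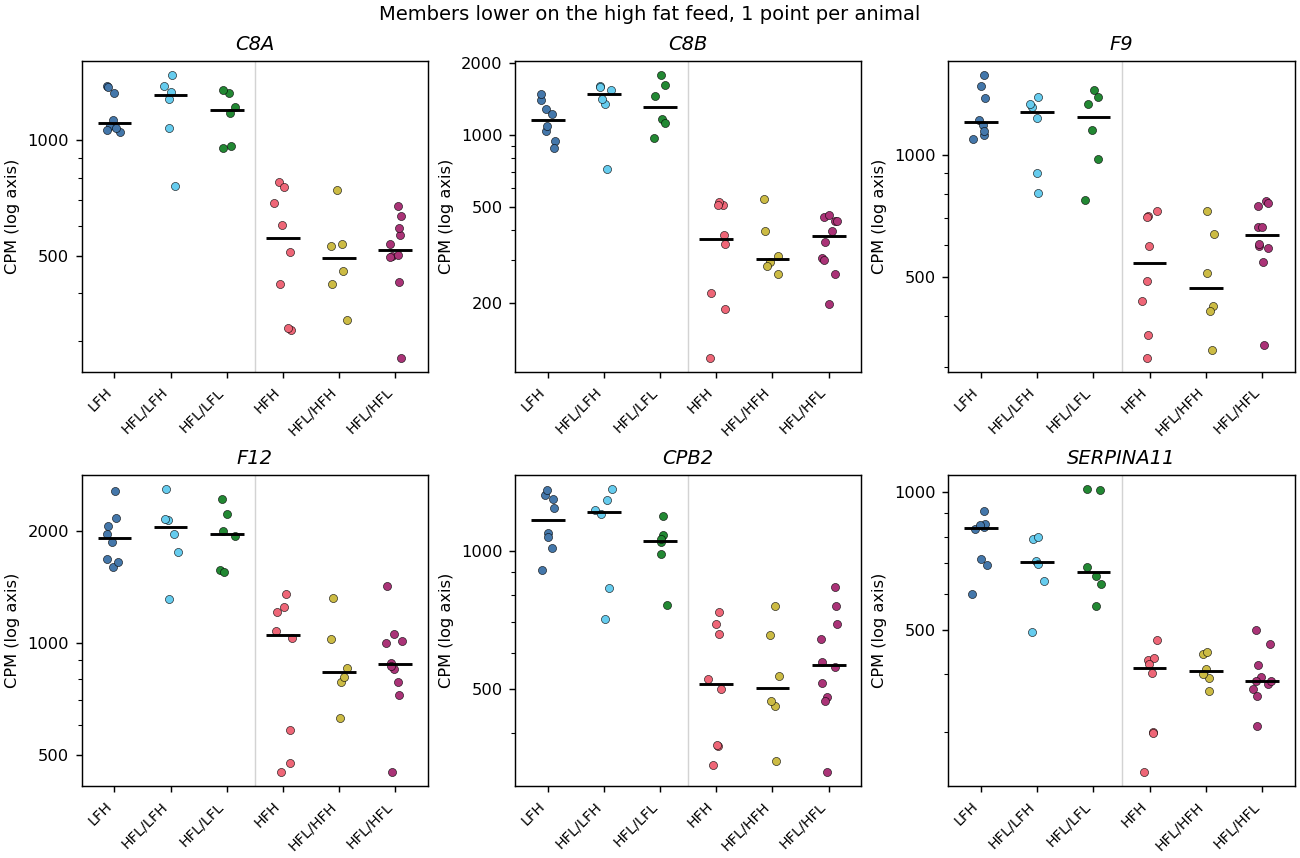
CPM on a log axis of C8A, C8B, F9, F12, CPB2 and SERPINA11 in each animal (points) of the 6 groups, with the group median as a line; low fat groups are left of the grey line. C8B and F9 in the 24 high fat animals all sit below the 20 low fat animals.

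Among the clotting factors, F9 and F12 fell in every diet comparison. Factor IX (F9) is a vitamin K-dependent protease of the intrinsic pathway, and factor XII (F12) starts that pathway on charged surfaces. F9 ranged from 1097 to 1572 CPM in LFH (median 1203), from 806 to 1387 in HFL/LFH (median 1272) and from 776 to 1441 in HFL/LFL (median 1242). F9 in HFH ranged from 315 to 727 CPM (median 543), in HFL/HFH from 330 to 728 (median 469) and in HFL/HFL from 340 to 772 (median 634). No high fat animal reached the lowest low fat animal, the gap being from 772 to 776 CPM. F9 fell by 1.23 (SE 0.18, adjusted p = 1.46e-07) in HFH against LFH, by 0.91 (SE 0.17, adjusted p = 6.95e-05) in HFL/HFL against HFL/LFL and by 1.19 (SE 0.20, adjusted p = 7.90e-06) in HFL/HFH against HFL/LFH.

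F12 ranged from 1597 to 2553 CPM in LFH (median 1916), from 1309 to 2585 in HFL/LFH (median 2053) and from 1551 to 2428 in HFL/LFL (median 1964). F12 in HFH ranged from 449 to 1354 CPM (median 1052), in HFL/HFH from 627 to 1322 (median 834) and in HFL/HFL from 450 to 1422 (median 875). Of the 3 diet comparisons HFL/HFH against HFL/LFH overlapped, where the lowest HFL/LFH animal, animal 33, lay under the highest HFL/HFH animal. F12 fell by 1.07 (SE 0.20, adjusted p = 2.22e-05) in HFH against LFH, by 1.11 (SE 0.20, adjusted p = 2.80e-05) in HFL/HFL against HFL/LFL and by 1.13 (SE 0.23, adjusted p = 0.000134) in HFL/HFH against HFL/LFH. Factor VIII (F8), the cofactor of factor IX, ranged from 13.5 to 22.6 CPM in LFH (median 18.8), from 8.86 to 21.2 in HFL/LFH (median 12.4) and from 13.3 to 19.5 in HFL/LFL (median 15.8). F8 in HFH ranged from 9.21 to 18.6 CPM (median 12.5), in HFL/HFH from 5.67 to 13.3 (median 11.1) and in HFL/HFL from 6.88 to 15.1 (median 10.1). These groups overlapped in each comparison. F8 fell by 0.50 (SE 0.17, adjusted p = 0.0109) in HFH against LFH and by 0.64 (SE 0.17, adjusted p = 0.00278) in HFL/HFL against HFL/LFL, and was at -0.42 (SE 0.19, adjusted p = 0.0821) in HFL/HFH against HFL/LFH.

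Fibrinogen gamma chain (FGG), a subunit of the clot-forming protein, had its highest levels in HFL/LFL. FGG ranged from 5417 to 12624 CPM in LFH (median 7999), from 3368 to 10974 in HFL/LFH (median 7859) and from 4723 to 22479 in HFL/LFL (median 11904). FGG in HFH ranged from 2644 to 7989 CPM (median 5106), in HFL/HFH from 3621 to 6099 (median 4966) and in HFL/HFL from 1977 to 7541 (median 4041). The highest HFL/LFL animal was above every animal of the other groups, whereas its lowest animal, animal 44, lay within the range of HFL/HFL. FGG was called in HFL/HFL against HFL/LFL (log2 fold change -1.58, SE 0.29, adjusted p = 2.66e-05) and not in HFH against LFH (log2 fold change -0.64, SE 0.28, adjusted p = 0.058) or HFL/HFH against HFL/LFH (log2 fold change -0.56, SE 0.33, adjusted p = 0.183). HFH against LFH passed with DESeq2 (adjusted p = 0.0390) and in a fit of the compared groups alone (0.0455), and HFL/HFH against HFL/LFH passed in limma voom (0.0343).

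Von Willebrand factor (VWF), which tethers platelets and carries factor VIII, was the member with opposite calls. VWF ranged from 43.8 to 120 CPM in LFH (median 62.1), from 49.9 to 92.2 in HFL/LFH (median 66.8) and from 79.9 to 142 in HFL/LFL (median 107). VWF in HFH ranged from 80.03 to 203 CPM (median 104), in HFL/HFH from 58.98 to 152 (median 92.9) and in HFL/HFL from 35.2 to 113 (median 77.1). The HFL/LFL median lay near that of HFH, and HFL/HFL held the lowest animal. VWF was higher in HFH than in LFH (log2 fold change 0.67, SE 0.23, adjusted p = 0.0129) and lower in HFL/HFL than in HFL/LFL (log2 fold change -0.62, SE 0.23, adjusted p = 0.0295), with 0.51 (SE 0.26, adjusted p = 0.129) in HFL/HFH against HFL/LFH. Without HFH animal 61, the highest of all, the first call was lost (0.50, adjusted p = 0.0631). The second was lost when HFL/HFL animal 90 or 93 or HFL/LFL animal 13 or 53 was left out (-0.55 to -0.54, adjusted p = 0.0528 to 0.0827). Of the 4 endothelial markers, LYVE1 alone was called lower in HFH against LFH and in HFL/HFH against HFL/LFH, and 3 were in HFL/HFL against HFL/LFL, and their part was not tested.

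Factor XIII A chain (F13A1), which cross-links fibrin, lay near the floor, from 0 to 0.772 CPM over all animals. Every HFL/LFL animal was at or under the floor of 3 counts. Against that floor the mean of HFL/HFL was at least 1.46-fold higher. The edgeR test called F13A1 higher in HFL/HFL against HFL/LFL (adjusted p = 0.0246) and in HFL/HFH against HFL/LFH (0.0422). Leaving out HFL/LFL animal 13, 17 or 53 ended the first call (0.0501 to 0.0527) and any of HFL/HFH animals 15, 19 and 22 and HFL/LFH animals 3, 4, 32 and 33 the second (0.0569 to 0.0925). The first call was also lost in limma voom (1.87, adjusted p = 0.186), and the second without the filter on low counts (0.0752) and in the fit of the compared groups alone (0.0547).

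Of 6 listed anticoagulant genes 2 were tested, and both were called lower in each diet comparison (21.6%, 18.1% and 16.5% of all symbols). Protein S (PROS1) is the cofactor of activated protein C, and SERPINA10 encodes the protein Z-dependent inhibitor of activated factor X. PROS1 ranged from 597 to 824 CPM in LFH (median 693), from 334 to 743 in HFL/LFH (median 700) and from 446 to 838 in HFL/LFL (median 627). PROS1 in HFH ranged from 277 to 573 CPM (median 353), in HFL/HFH from 203 to 433 (median 324) and in HFL/HFL from 265 to 513 (median 359). HFH lay wholly below LFH, and the other pairs of groups overlapped. PROS1 fell by 0.82 (SE 0.17, adjusted p = 0.000132) in HFH against LFH, by 0.81 (SE 0.18, adjusted p = 0.000335) in HFL/HFL against HFL/LFL and by 0.92 (SE 0.20, adjusted p = 0.000327) in HFL/HFH against HFL/LFH.

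SERPINA10 ranged from 418 to 611 CPM in LFH (median 536), from 278 to 749 in HFL/LFH (median 479) and from 451 to 1424 in HFL/LFL (median 793). SERPINA10 in HFH ranged from 127 to 376 CPM (median 292), in HFL/HFH from 208 to 408 (median 328) and in HFL/HFL from 177 to 461 (median 327). HFL/LFL had the highest median and the highest animal (animal 49), and the 3 high fat groups had similar medians. SERPINA10 fell by 1.02 (SE 0.21, adjusted p = 0.000103) in HFH against LFH, by 1.35 (SE 0.21, adjusted p = 3.12e-06) in HFL/HFL against HFL/LFL and by 0.60 (SE 0.24, adjusted p = 0.0496) in HFL/HFH against HFL/LFH. The last call was lost without any of HFL/HFH animals 15, 22, 30 and 84 or HFL/LFH animals 3, 32 and 58 (log2 fold change -0.61 to -0.45, adjusted p = 0.0682 to 0.168), with no filter on low counts (0.066) and with unnamed rows kept (0.0503).

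Among the fibrinolysis members, the plasma proteins CPB2, PLG and SERPINF2 fell in every diet comparison. CPB2 encodes a carboxypeptidase that protects fibrin from plasmin, PLG plasminogen, and SERPINF2 the main plasma inhibitor of plasmin. CPB2 ranged from 911 to 1359 CPM in LFH (median 1169), from 710 to 1364 in HFL/LFH (median 1217) and from 762 to 1191 in HFL/LFL (median 1054). CPB2 in HFH ranged from 340 to 737 CPM (median 512), in HFL/HFH from 348 to 757 (median 501) and in HFL/HFL from 328 to 834 (median 565). LFH and HFH did not overlap, and in the other comparisons only the ends of the ranges met. CPB2 fell by 1.15 (SE 0.17, adjusted p = 5.19e-07) in HFH against LFH, by 0.80 (SE 0.17, adjusted p = 0.000311) in HFL/HFL against HFL/LFL and by 1.04 (SE 0.20, adjusted p = 5.68e-05) in HFL/HFH against HFL/LFH.

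SERPINF2 ranged from 1944 to 3416 CPM in LFH (median 2629), from 1659 to 3423 in HFL/LFH (median 2825) and from 1633 to 3594 in HFL/LFL (median 2266). SERPINF2 in HFH ranged from 856 to 2122 CPM (median 1654), in HFL/HFH from 1281 to 2050 (median 1592) and in HFL/HFL from 988 to 2329 (median 1708). All these ranges overlapped. SERPINF2 fell by 0.79 (SE 0.20, adjusted p = 0.000944) in HFH against LFH, by 0.55 (SE 0.20, adjusted p = 0.0269) in HFL/HFL against HFL/LFL and by 0.70 (SE 0.23, adjusted p = 0.0127) in HFL/HFH against HFL/LFH. In HFL/HFL against HFL/LFL its call was lost without HFL/HFL animal 75 or HFL/LFL animal 17 or 68 (-0.48 to -0.41, adjusted p = 0.0535 to 0.121). PLG, whose counts were identical to those of the symbols PLGLB1 and PLGLB2 and so cannot be assigned to 1 of the 3, fell by 0.67 (SE 0.24, adjusted p = 0.0205) in HFH against LFH, by 0.94 (SE 0.24, adjusted p = 0.00233) in HFL/HFL against HFL/LFL and by 0.88 (SE 0.28, adjusted p = 0.0117) in HFL/HFH against HFL/LFH. Without HFH animal 61 or 88 the first of these was no longer called (-0.57 in both, adjusted p = 0.0516 and 0.0515).

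SERPINB2, an inhibitor of plasminogen activators, was near the floor in most animals, and 1 animal stood out in several groups: 14.3 CPM in LFH animal 64, 18.1 in HFL/LFL animal 68 and 8.000 in HFL/HFL animal 90, against group medians of 0.210 to 0.932. No comparison called it.

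**Figure D3:**
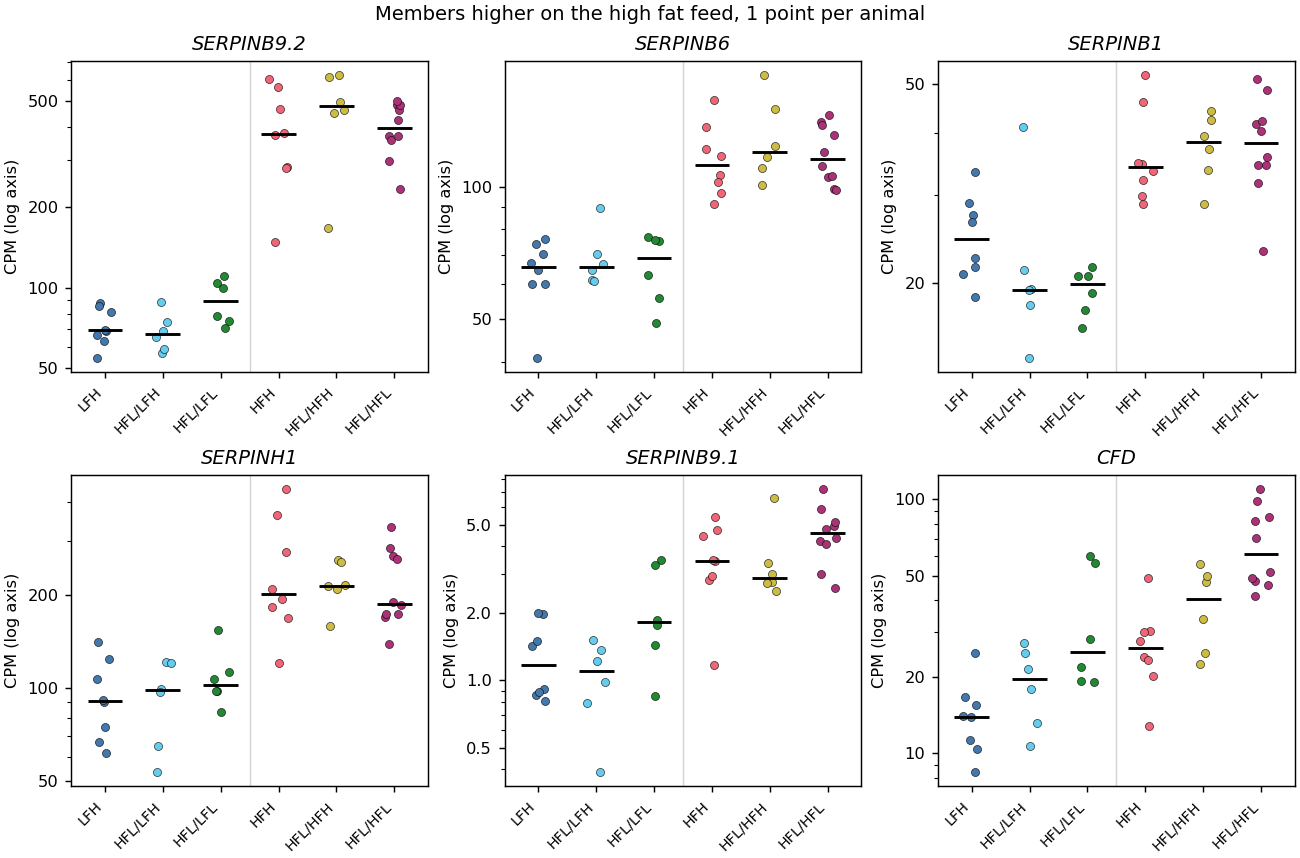
CPM on a log axis of SERPINB9.2, SERPINB6, SERPINB1, SERPINH1, SERPINB9.1 and CFD in each animal (points) of the 6 groups, with the group median as a line; low fat groups are left of the grey line. SERPINB9.2 and SERPINB6 in the 24 high fat animals all sit above the 20 low fat animals.

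Of the other secreted serpins and fetuin, 4 of 7 fell in HFH against LFH (21.6% of all symbols), 3 in HFL/HFL against HFL/LFL (18.1%) and 2 in HFL/HFH against HFL/LFH (16.5%), and SERPINH1 was the one that rose in each. SERPINA11 is a liver serpin of little known function. SERPINA11 ranged from 600 to 909 CPM in LFH (median 837), from 494 to 797 in HFL/LFH (median 703) and from 565 to 1016 in HFL/LFL (median 671). SERPINA11 in HFH ranged from 244 to 476 CPM (median 412), in HFL/HFH from 369 to 447 (median 406) and in HFL/HFL from 309 to 501 (median 388). No diet comparison overlapped for it. SERPINA11 fell by 1.07 (SE 0.13, adjusted p = 4.81e-09) in HFH against LFH, by 0.93 (SE 0.13, adjusted p = 2.75e-07) in HFL/HFL against HFL/LFL and by 0.74 (SE 0.15, adjusted p = 9.08e-05) in HFL/HFH against HFL/LFH.

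Antichymotrypsin (SERPINA3), an acute phase protein that inhibits neutrophil cathepsin G, ranged from 4206 to 9350 CPM in LFH (median 5748), from 3161 to 6893 in HFL/LFH (median 5527) and from 3230 to 9274 in HFL/LFL (median 6638). SERPINA3 in HFH ranged from 1793 to 3697 CPM (median 3133), in HFL/HFH from 2251 to 3764 (median 2980) and in HFL/HFL from 1392 to 3934 (median 2964). HFH and LFH were apart, and the other pairs overlapped at their ends. SERPINA3 fell by 1.26 (SE 0.22, adjusted p = 6.65e-06) in HFH against LFH, by 1.12 (SE 0.22, adjusted p = 8.33e-05) in HFL/HFL against HFL/LFL and by 0.86 (SE 0.25, adjusted p = 0.00648) in HFL/HFH against HFL/LFH. Antitrypsin (SERPINA1), the plasma inhibitor of neutrophil elastase, had medians of 32539 to 39212 CPM in the low fat groups and 20007 to 20831 in the high fat groups. SERPINA1 fell by 0.85 (SE 0.20, adjusted p = 0.000586) in HFH against LFH and by 0.80 (SE 0.21, adjusted p = 0.00192) in HFL/HFL against HFL/LFL, and was at -0.56 (SE 0.23, adjusted p = 0.0585) in HFL/HFH against HFL/LFH.

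Fetuin-A (AHSG), a plasma carrier of calcium phosphate, ranged from 7998 to 17198 CPM in LFH (median 11567), from 6437 to 11119 in HFL/LFH (median 9353) and from 6168 to 13059 in HFL/LFL (median 9218). AHSG in HFH ranged from 3819 to 9751 CPM (median 7585), in HFL/HFH from 5375 to 8546 (median 6841) and in HFL/HFL from 5739 to 11153 (median 7965). The ranges overlapped in every comparison. AHSG fell by 0.71 (SE 0.17, adjusted p = 0.000496) in HFH against LFH, with log2 fold changes of -0.19 (SE 0.17, adjusted p = 0.4) in HFL/HFL against HFL/LFL and -0.43 (SE 0.19, adjusted p = 0.0822) in HFL/HFH against HFL/LFH.

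SERPINH1 inhibits no protease and is the collagen chaperone of the endoplasmic reticulum. SERPINH1 ranged from 61.4 to 141 CPM in LFH (median 90.8), from 53.3 to 121 in HFL/LFH (median 98.4) and from 83.8 to 154 in HFL/LFL (median 102). SERPINH1 in HFH ranged from 120 to 440 CPM (median 202), in HFL/HFH from 158 to 259 (median 215) and in HFL/HFL from 139 to 333 (median 187). HFL/HFH and HFL/LFH were apart, and elsewhere the highest low fat animals met the lowest high fat animals. SERPINH1 rose by 1.37 (SE 0.22, adjusted p = 1.10e-06) in HFH against LFH, by 1.001 (SE 0.23, adjusted p = 0.000524) in HFL/HFL against HFL/LFL and by 1.24 (SE 0.25, adjusted p = 0.000103) in HFL/HFH against HFL/LFH. Of the 5 stellate and fibroblast markers, PDGFRB, RGS5 and LUM rose with it in each comparison while LRAT fell, and their part was not tested. SERPINA9 and SERPINI1 (neuroserpin) were not called, with log2 fold changes of 0.94, -0.56 and 1.18 for SERPINA9 and 0.40, 0.49 and -0.14 for SERPINI1 in the order of the diet comparisons.

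Of the 8 clade B serpins, 5 were called higher and 1 lower in HFH against LFH (27.5% and 21.6% of all symbols), 6 higher and 0 lower in HFL/HFL against HFL/LFL (19.6% and 18.1%), and 4 higher and 0 lower in HFL/HFH against HFL/LFH (19.4% and 16.5%). SERPINB9 inhibits granzyme B, and 4 guinea pig genes carried this human symbol in the table. They are told apart here by the suffixes of the table (SERPINB9, SERPINB9.1, SERPINB9.2 and SERPINB9.3), and reads could be split between near-identical copies. SERPINB9.2 ranged from 54.4 to 87.5 CPM in LFH (median 69.2), from 56.8 to 88.2 in HFL/LFH (median 67.1) and from 70.7 to 110 in HFL/LFL (median 89.2). SERPINB9.2 in HFH ranged from 148 to 605 CPM (median 378), in HFL/HFH from 167 to 626 (median 481) and in HFL/HFL from 235 to 500 (median 398). All 24 high fat animals lay above all 20 low fat animals. SERPINB9.2 rose by 2.43 (SE 0.21, adjusted p = 2.32e-12) in HFH against LFH, by 2.15 (SE 0.23, adjusted p = 1.53e-09) in HFL/HFL against HFL/LFL and by 2.77 (SE 0.25, adjusted p = 2.14e-11) in HFL/HFH against HFL/LFH, the smallest adjusted p of any member in each comparison.

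SERPINB9.1 ranged from 0.810 to 2.01 CPM in LFH (median 1.17), from 0.387 to 1.51 in HFL/LFH (median 1.11) and from 0.854 to 3.45 in HFL/LFL (median 1.82). SERPINB9.1 in HFH ranged from 1.18 to 5.41 CPM (median 3.44), in HFL/HFH from 2.53 to 6.55 (median 2.88) and in HFL/HFL from 2.60 to 7.20 (median 4.57). HFL/HFH and HFL/LFH did not overlap, whereas HFL/LFL reached into the high fat range. SERPINB9.1 rose by 1.44 (SE 0.30, adjusted p = 9.12e-05) in HFH against LFH, by 1.13 (SE 0.31, adjusted p = 0.00378) in HFL/HFL against HFL/LFL and by 1.74 (SE 0.35, adjusted p = 0.000104) in HFL/HFH against HFL/LFH. SERPINB9 itself had group medians of 12.7 to 15.3 CPM and log2 fold changes of -0.07, 0.07 and 0.12, none called. SERPINB9.3 was called in HFL/HFL against HFL/LFL alone (log2 fold change 0.71, SE 0.28, adjusted p = 0.0397), a call lost without HFL/HFL animal 12 or 81 or HFL/LFL animal 13, 17, 49 or 53 (adjusted p = 0.0651 to 0.0892).

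SERPINB6, an intracellular inhibitor of trypsin-like proteases, ranged from 40.7 to 76.2 CPM in LFH (median 65.8), from 61.1 to 89.3 in HFL/LFH (median 65.6) and from 48.9 to 76.7 in HFL/LFL (median 69.00). SERPINB6 in HFH ranged from 91.4 to 158 CPM (median 112), in HFL/HFH from 101 to 179 (median 120) and in HFL/HFL from 98.5 to 146 (median 116). The 2 feeds were apart over all animals, by 89.3 against 91.4 CPM at the nearest. SERPINB6 rose by 0.86 (SE 0.13, adjusted p = 3.64e-07) in HFH against LFH, by 0.86 (SE 0.13, adjusted p = 2.64e-06) in HFL/HFL against HFL/LFL and by 0.92 (SE 0.15, adjusted p = 3.23e-06) in HFL/HFH against HFL/LFH. SERPINB1, an inhibitor of neutrophil proteases, had medians of 19.4 to 24.5 CPM on low fat and 34.1 to 38.2 on high fat, and rose by 0.55 (SE 0.16, adjusted p = 0.00414) in HFH against LFH, by 0.99 (SE 0.17, adjusted p = 1.37e-05) in HFL/HFL against HFL/LFL and by 0.76 (SE 0.19, adjusted p = 0.00109) in HFL/HFH against HFL/LFH.

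SERPINB5 (maspin) lay between 0 and 7.69 CPM. SERPINB5 was called higher in HFH against LFH (log2 fold change 1.63, SE 0.67, adjusted p = 0.0414) and HFL/HFL against HFL/LFL (log2 fold change 2.24, SE 0.75, adjusted p = 0.0159), with 1.88 (SE 0.78, adjusted p = 0.0532) in HFL/HFH against HFL/LFH. In limma voom neither was called (adjusted p = 0.0907 and 0.217), in the fit of the compared groups alone the second was not (0.0636), and the first was lost without HFH animal 6 or 88 or LFH animal 5, 25, 27, 56, 64 or 79 (0.0505 to 0.0891). SERPINB8, an inhibitor of furin-like proteases, fell in HFH against LFH (log2 fold change -0.38, SE 0.13, adjusted p = 0.0187). Without LFH animal 46 this was -0.30 (adjusted p = 0.0649), and the other diet comparisons gave -0.20 and -0.26, not called.

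**Figure D4:**
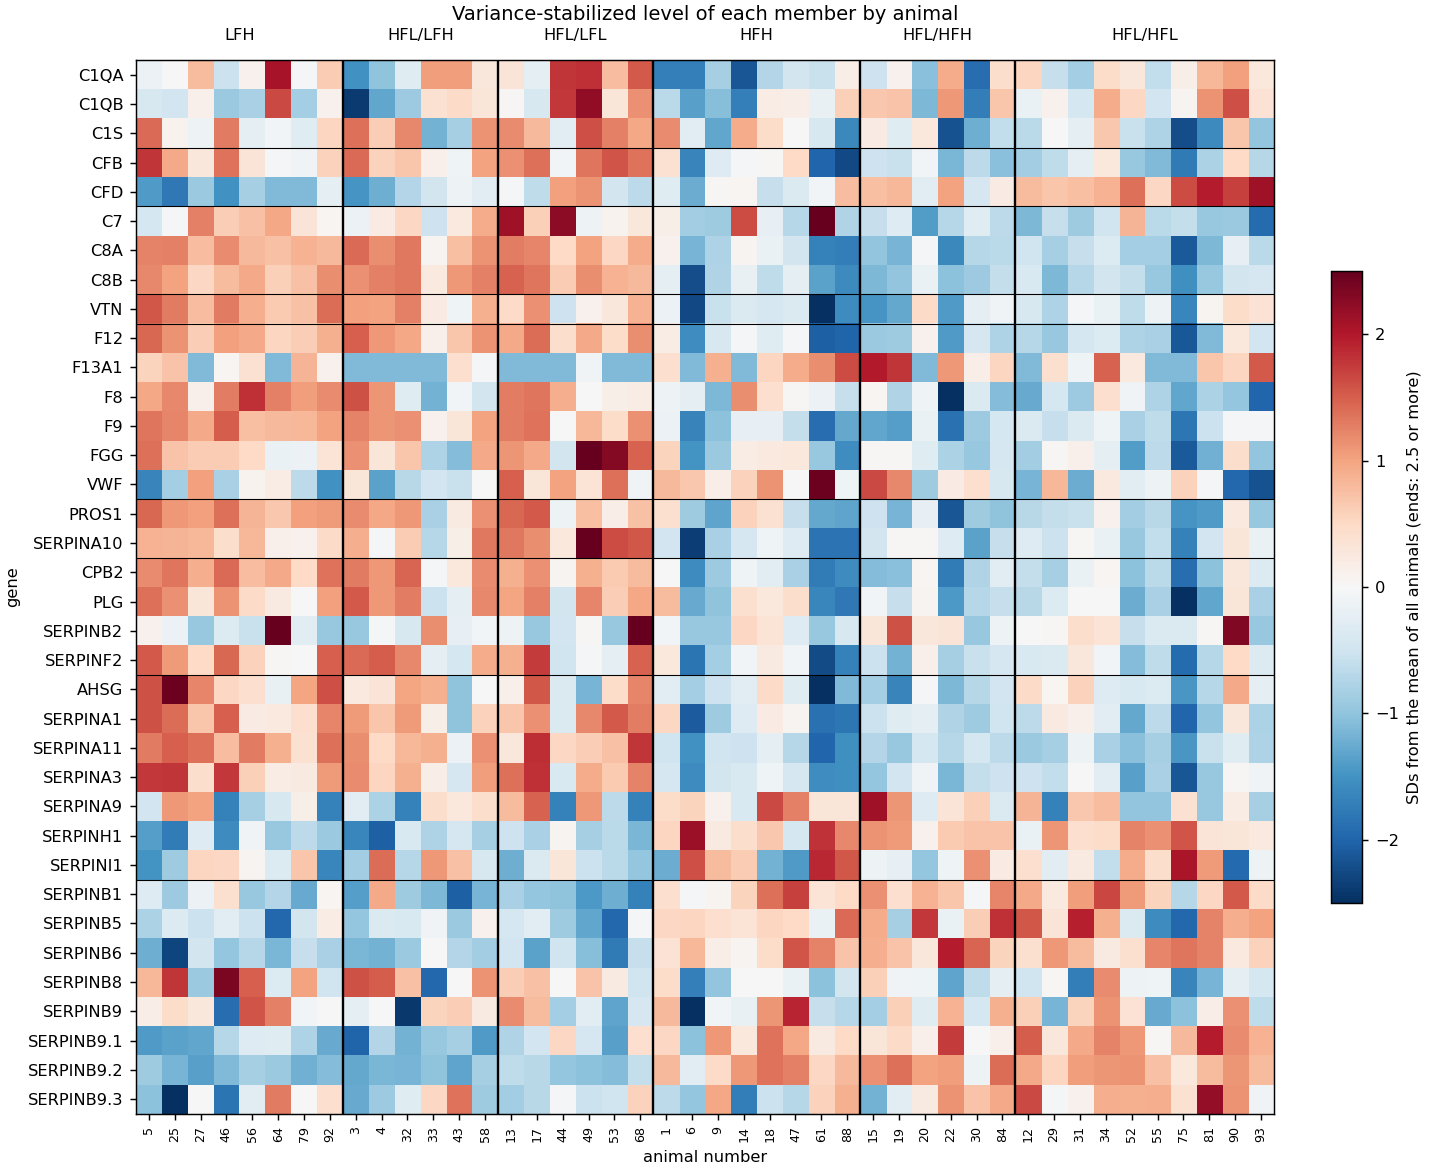
The authors' variance-stabilized log2 value of 36 of the 37 members (rows, grouped by role) in each of the 44 animals (columns, by group), as SDs from the member's mean over all animals; red is above and blue below. Most secreted members are red in the 3 low fat groups on the left and blue in the 3 high fat groups on the right, and SERPINH1, SERPINB6, SERPINB9.1 and SERPINB9.2 are the reverse.

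Some animals stood at the edge of their group for many members. Over the 19 members called in the same direction in all 3 diet comparisons, HFL/LFL animal 44 was the one of its group nearest the high fat side in 14, and HFL/HFH animal 20 the one of its group nearest the low fat side in 14. Within their groups, HFL/LFH animal 33 was nearest the high fat side in 9, LFH animal 64 in 7 and HFL/LFH animal 43 in 6. HFL/HFL animal 90 was nearest the low fat side in 8 and HFH animal 1 in 6. Of these animals, 44 and 33 had the lowest summed hepatocyte markers of their groups (57924 and 51503 CPM), and 20 and 90 the highest of theirs (50033 and 56256 CPM). LFH animal 64 (116442 CPM), HFL/LFH animal 43 (57248 CPM) and HFH animal 1 (62235 CPM) lay inside the range of theirs. These sums are mostly ALB: the lowest HFL/LFL animal for ASGR1 was animal 49, and the lowest HFL/LFH animal for it was animal 43. The part of these markers in the animals' places was not tested.

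Genes that act beside the members were counted from lists of receptors, cofactors and activators, of which only some are in the table. Over all symbols, 27.5%, 19.6% and 19.4% were called higher and 21.6%, 18.1% and 16.5% lower in the order of the diet comparisons. Of the 3 complement receptor genes in the table (16 listed), 0, 0 and 1 were higher and 0, 1 and 0 lower in that order. Of 10 lectin pathway recognition and fluid-phase genes (13 listed), 2, 2 and 1 were higher and 4, 6 and 3 lower, and FCN1, a ficolin that recognizes bacterial sugars, rose by 1.40, 1.26 and 2.41. Of 5 coagulation receptors, cofactors and tissue factor pathway genes (20 listed), 4, 3 and 3 were higher and 1, 1 and 0 lower. They include F2RL1, a receptor cleaved by trypsin-like proteases, which rose by 2.83, 1.90 and 2.62, and ANXA5, which covers procoagulant membranes and rose by 2.02, 1.35 and 1.84. The 3 fibrinolysis activators and receptors in the table (PLAT, ANXA2 and THBS1, of 7 listed) were higher each time. ANXA2, a membrane site for plasminogen and its activator, rose by 2.23, 2.15 and 2.67, and THBS1, a matrix protein that binds plasminogen, by 3.48, 1.87 and 2.85. Of 3 vitamin K cycle genes (4 listed), 1, 0 and 0 were higher and 1, 1 and 0 lower. Outside the diet comparisons, serum amyloid P (APCS), of the lectin pathway and fluid-phase list, was called higher in HFL/LFL against HFL/LFH (log2 fold change 1.07, SE 0.24, adjusted p = 0.038). It was among the 0.223% of all symbols called there. In a fit of the compared groups alone no symbol was called in that comparison, so the APCS call was lost. In HFL/LFL against LFH (7.73% of all symbols), APCS, THBS1 and 3 of the 5 coagulation genes (TFPI2, F2RL1 and ANXA5) were called higher and VKORC1 lower. These genes were named after their values were seen.

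After the switch, low against high vitC gave no called member on either feed. In HFL/LFL against HFL/LFH, edgeR called 0 of 37 members (0.223% of all symbols were called), with 8 at an unadjusted p under 0.05 (21.6%, against 10.9% of all symbols) and a smallest adjusted p of 0.180. DESeq2 and limma voom also called 0. No member's groups were without overlap (0.485% of all symbols were). SERPINA10 had the smallest p, at 0.74 (SE 0.24, adjusted p = 0.18), with a 95% interval of 0.25 to 1.24. SERPINB9.1 was at 1.01 (SE 0.35, adjusted p = 0.216) and C1QB at 0.59 (SE 0.22, adjusted p = 0.248), followed by FGG at 0.89 (SE 0.33, adjusted p = 0.251) and CFD at 0.83 (SE 0.31, adjusted p = 0.265). All 5 had higher medians in HFL/LFL, and none passed the test.

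For the 6 members without overlap in each diet comparison, the intervals in HFL/LFL against HFL/LFH bound the difference. C8B was at -0.02 (95% interval -0.53 to 0.50), C8A at -0.07 (-0.47 to 0.33) and F9 at 0.02 (-0.38 to 0.42). SERPINA11 was at 0.14 (-0.15 to 0.44), SERPINB6 at -0.07 (-0.36 to 0.23) and SERPINB9.2 at 0.38 (-0.09 to 0.86). For these 6 members each interval excluded a difference as large as the diet fold changes of the same gene. They were picked by their separation between the feeds in these same animals, which favours that outcome. It therefore says nothing about the other members. The interval of SERPINA10, which is not among them, held the sizes of its fold changes in HFH against LFH and HFL/HFH against HFL/LFH.

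In HFL/HFL against HFL/HFH, edgeR called 0 members (0.0131% of all symbols were called), with 2 at an unadjusted p under 0.05 (5.41%, against 3.39%). DESeq2 and limma voom called 0 as well. Those 2 were CFD (log2 fold change 0.81, SE 0.28, adjusted p = 0.999, unadjusted p = 0.00652) and VWF (log2 fold change -0.47, SE 0.23, adjusted p = 0.999, unadjusted p = 0.0493). F9 followed at 0.31 (SE 0.18, adjusted p = 0.999). CFD medians were higher with low vitC on both feeds, and both comparisons missed the threshold.

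The interaction of vitC and diet, the diet difference with low vitC minus that with high vitC, was called for 0 members and 0 symbols in all (0%), with 4 members (10.8%, against 8.24% of all symbols) at an unadjusted p under 0.05. DESeq2 and limma voom called 0 members. VWF had the smallest p, at -1.13 (SE 0.35, adjusted p = 0.317) with a 95% interval of -1.84 to -0.43. FGG was at -1.02 (SE 0.44, adjusted p = 0.502).

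**Figure D5:**
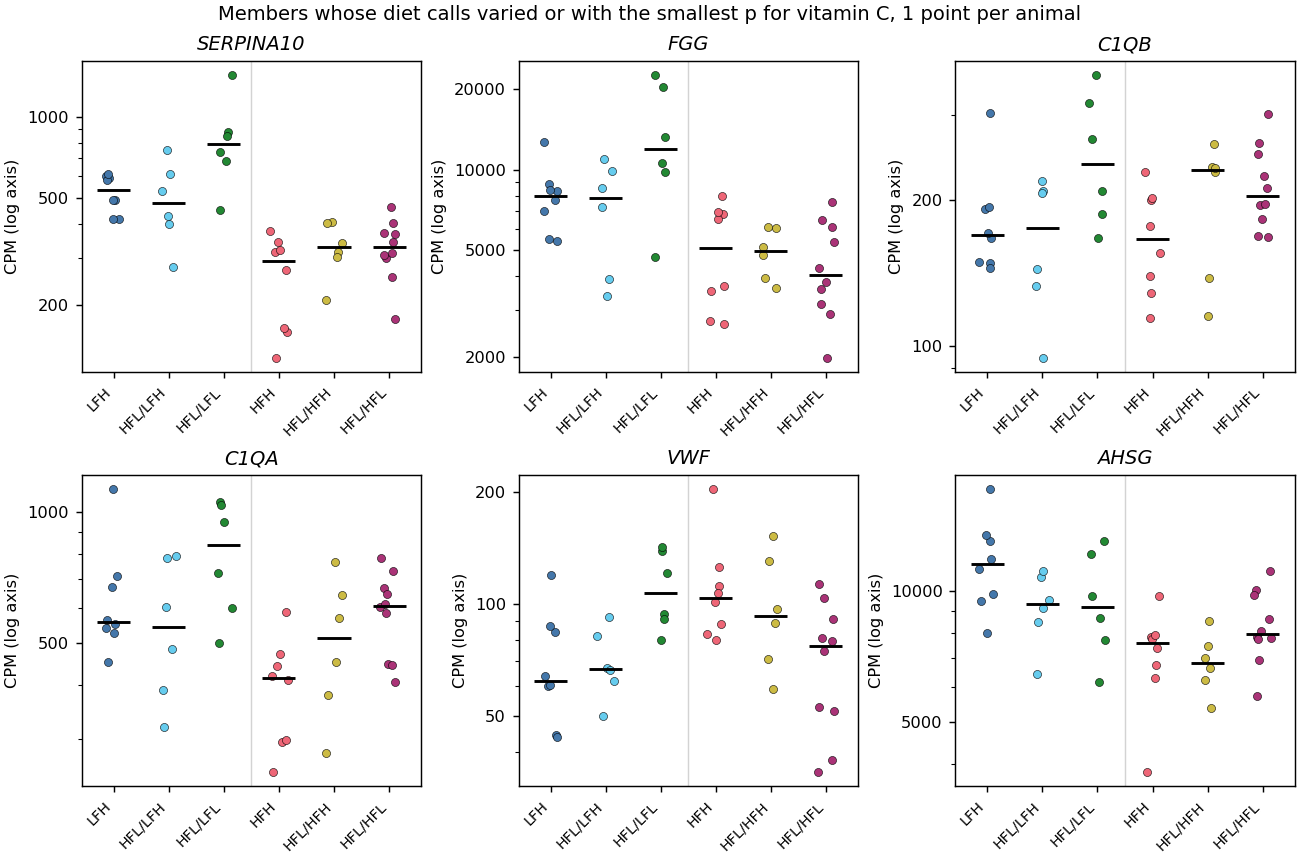
CPM on a log axis of SERPINA10, FGG, C1QB, C1QA, VWF and AHSG in each animal (points) of the 6 groups, with the group median as a line; low fat groups are left of the grey line. HFL/LFL has the highest median of all groups for each of them except AHSG, where LFH has.

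After the change to low fat feed, most members did not differ detectably from animals kept on low fat throughout. These comparisons share LFH animals with each other and with HFH against LFH. Both HFL/LFH and HFL/LFL differ from LFH in their earlier feed, which was high in fat and low in vitC. HFL/LFL differs from LFH in current vitC as well. In HFL/LFH against LFH, edgeR called 0 members (0.354% of all symbols were called), with 1 at an unadjusted p under 0.05 (2.70%, against 10.3%). DESeq2 and limma voom called 0. The smallest p values belonged to F8 (log2 fold change -0.39, SE 0.18, adjusted p = 0.446), AHSG (log2 fold change -0.35, SE 0.18, adjusted p = 0.521) and CFD (log2 fold change 0.42, SE 0.29, adjusted p = 0.654). C8B was at 0.23 (95% interval -0.26 to 0.71), F9 at -0.13 (-0.51 to 0.24) and SERPINB9.2 at -0.07 (-0.51 to 0.38).

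In HFL/LFL against LFH, edgeR gave 9 members an unadjusted p under 0.05 (24.3%, against 22.7% of all symbols). CFD was the 1 member called (2.70%, against 7.73% of all symbols), higher at 1.24 (SE 0.29, adjusted p = 0.00633). Its HFL/LFL animals ranged from 19.1 to 59.9 CPM and its LFH animals from 8.43 to 24.9, so the ends overlapped. This comparison cannot separate earlier high fat feed from low vitC, and their parts in the CFD difference were not tested. SERPINA10 (log2 fold change 0.67, SE 0.23, adjusted p = 0.0571) missed the threshold, and passed when HFL/LFL animal 17 (adjusted p = 0.0446) or 44 (0.0308) was left out. DESeq2 called 3 members, with SERPINA10 at an adjusted p of 0.0395. C8B was at 0.21 (95% interval -0.27 to 0.69) and F9 at -0.11 (-0.49 to 0.26).

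HFL/HFL against HFH, a comparison added after the data were seen, sets low against high vitC for the whole study on the high fat feed. These groups did not differ in vitC alone. The paper reports that HFH animals took in more energy than HFL animals in the first part of the study. It also reports that HFH later had the highest body weight. The parts of intake and weight in this comparison were not tested. At an unadjusted p under 0.05 in edgeR were 8 members (21.6%, against 17.4% of all symbols). CFD was again the 1 member called (2.70%, against 0.288% of all symbols), higher at 1.33 (SE 0.26, adjusted p = 0.0219). CFD animals of HFL/HFL ranged from 41.6 to 110 CPM and those of HFH from 12.8 to 48.8, with the ends overlapping. The call was lost in the fit of these 2 groups alone (1.32, adjusted p = 0.0756) and without HFH animal 1, 6, 14 or 61 or HFL/HFL animal 81 (1.22 to 1.35, adjusted p = 0.0506 to 0.0783). VWF was at -0.64 (SE 0.21, adjusted p = 0.138) and did not pass.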

How the data were processed

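Liver RNA was enriched for mRNA and sequenced, 1 library per animal. According to the submitters' processing notes, the authors used bcl2fastq 2.19, Trimmomatic 0.38.0, HISAT2 2.1.0, StringTie 2.1.1 and DESeq2, and named guinea pig genes by human orthologues. The deposited counts are whole numbers per symbol without normalization. How StringTie's output became counts is not given in the sources used here. The deposited variance-stabilized values are on a log2 scale and served to find the 37 members and to draw the heatmap. Rows without a gene name (236 rows, 2.30% to 3.07% of an animal's counts) were left out. Of the members, CFB and VTN had the same counts as such a row in every animal.

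Counts of the 7629 named symbols with a total of at least 200 went into edgeR 4.0.16 under R 4.3.3, with TMM factors and its two-sided quasi-likelihood F test. The 44 animals were fitted together, with a mean for each of the 6 groups. Within each of 9 comparisons p-values were Benjamini-Hochberg adjusted, and 0.05 was the limit for a call. The steps were tested on simulated data. Alternatives were RLE size factors, no filter, filterByExpr, only the groups compared, DESeq2 1.42.0, limma 3.58.1 (voom with sample quality weights), identical count profiles taken once, unnamed rows kept (added after seeing the data), and leaving out each animal of a comparison in turn.

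The members and lists were chosen with earlier results of these data known. Group values are given for the 3 smallest p of each role group in HFH against LFH, for members called (or the 3 smallest p) in the vitC, interaction and post-switch comparisons, and for members with opposite diet calls. Genes of the related lists are named where called in the same direction in all 3 diet comparisons by 1 or more on the log2 scale. Values of other members named were chosen after they were seen. A single member is kept in the counts of members, and its values are not reported here. Levels are not compared between genes, since no gene lengths were used. Animals, not cultures or repeat libraries, are the replicates.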

Additional observations from a re-analysis of the deposited data

Results flagged for a closer look

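In 12 of 150 sets of animals (25 members in 6 groups), the highest or lowest animal lay far from the rest of its group by Dixon's criterion, which flags about 1 in 20 groups by chance. Levels are in CPM. Several flagged animals recurred. LFH animal 64 was highest for C1QA (1126, next 711) and C1QB (303, next 194). HFH animal 61 was highest for VWF (203, next 126) and C7 (23.9, next 9.26). HFL/LFH animal 33 was lowest for C8B (721, next 1353) and highest for SERPINB6 (89.3, next 70.3), that is, nearest to the high fat animals in both.

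The other flagged values belonged to 1 member each. C7 was highest in HFL/HFL animal 52 (5.20, next 1.19). SERPINB9.1 was highest in HFL/HFH animal 22 (6.55, next 3.36), and FGG in LFH animal 5 (12624, next 8803). The lowest animals were HFL/LFL animal 44 for CFB (4079, next 6373), HFL/HFL animal 75 for F9 (340, next 545) and LFH animal 25 for SERPINB6 (40.7, next 60.1).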

How the results depend on the processing

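No paired analysis was possible because each animal belongs to 1 group. Of 78 pairs of member and comparison called, 72 were called in all 8 alternatives that keep every animal and 67 with each animal left out in turn, and none of the 78 changed direction. Members called numbered 26 to 28 in HFH against LFH over these alternatives (25 to 28 with an animal left out), 26 to 28 in HFL/HFL against HFL/LFL (25 to 28) and 19 to 28 in HFL/HFH against HFL/LFH (19 to 23), while the alternatives called 3554 to 3875, 2763 to 3073 and 2574 to 3462 of all symbols. They stayed at 0 in both comparisons of vitC levels after the switch, the interaction and HFL/LFH against LFH. In HFL/LFL against LFH, DESeq2 called 3 and identical profiles taken once 2, against 1, and leaving out an animal gave 1 to 3. In HFL/HFL against HFH, the fit of these groups alone called 0, DESeq2 2 and limma voom 4, against 1, and leaving out an animal gave 0 to 2. Of the uncalled values chosen by the naming rule, those that turned sign were C1QB in HFH against LFH (-0.20 to 0.0138 with an animal left out, the last without LFH animal 64) and C7 there (-0.31 in limma voom, and -0.69, without HFH animal 61, to 0.60 with an animal left out). Other uncalled values, such as those near 0 for C8B and F9 in HFL/LFL against HFL/LFH, were not followed with an animal left out. Over all symbols, the alternatives called 0 to 80 (17) in HFL/LFL against HFL/LFH, 0 to 1 (1) in HFL/HFL against HFL/HFH, 0 to 3 (0) for the interaction, 3 to 61 (27) in HFL/LFH against LFH, 242 to 755 (590) in HFL/LFL against LFH and 0 to 553 (22) in HFL/HFL against HFH, with the edgeR count in brackets. F13A1, SERPINA9 and SERPINB2 lay near the floor, where differences were not detectable at this depth unless large. The cause of these changes was not tested.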
